A study of Danio rerio with 6 samples.

Results

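The genes examined here encode the ATP-driven calcium pumps of the cell surface and of the endoplasmic reticulum, measured in hair cells and surrounding cells of the adult zebrafish inner ear. Members were taken by symbol, and all 10 were present among the 31386 genes of the expression table. Of these, 6 encode plasma membrane pumps (atp2b1a, atp2b1b, atp2b2, atp2b3a, atp2b3b and atp2b4) and 4 encode SERCA pumps of the endoplasmic reticulum (atp2a1, atp2a2a, atp2a2b and atp2a3). RNA sequencing was done on 3 biological samples, of which 2 held hair cells and 1 held surrounding cells. Every sample held 2000 cells from females aged 11 to 13 months of the line Tg(pou4f3:GAP-GFP)s273t, so both groups carried the same transgene. In this line the promoter of pou4f3, which encodes a transcription factor of hair cells, drives green fluorescent protein (GFP). Hair cells were GFP-positive and surrounding cells GFP-negative, and each sample pooled cells of the lagena, utricle and saccule. The surrounding cells are thus defined by lack of fluorescence and can be of several types.

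Calcium enters a hair cell at the bundle through the mechanotransduction channels and at the base through voltage-gated channels that trigger transmitter release. Plasma membrane calcium ATPases spend ATP to push it out of the cell, and SERCA pumps load it into the endoplasmic reticulum, from which it can be released again. In mammals the product of Atp2b2 is the pump of the hair bundle, and its loss in mice causes deafness and imbalance, whereas Atp2b1 and Atp2b4 are used by most tissues. Zebrafish keep pairs of duplicate genes for several of these pumps, marked a and b.

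Levels are given as RPKM, the reads of a gene per kilobase of its length, set against the library total of mapped reads. Each sample was sequenced as 2 technical replicates, which agreed within about the sampling noise and were averaged to 1 sample. The library names of a pair differ in 1 field only, and the labels do not say whether a pair was prepared apart. Mapped reads per library, worked out from the RPKM steps, were 15843692 and 16058483 in hair cell replicate 1. They were 50791022 and 51566819 in hair cell replicate 2, and 17066800 and 17281834 in the surrounding cells, so depth differed between the hair cell replicates. Reads in genes made up 58.6% to 61.1% of the mapped reads in the hair cell libraries and 50.9% to 51.0% in those of the surrounding cells. Library names of hair cell replicate 1 begin as those of the surrounding cells do and those of replicate 2 begin otherwise, so any difference in preparation cannot be told apart from the replicate. The letters WT in the surrounding cell names are not explained by the labels. The marked gene pou4f3 had 152 and 84.0 RPKM in the hair cell samples against 0.146 in surrounding cells. All 12 genes of the hair cell marker list were higher in hair cells by the test used below, where 17.7% of all genes tested were. Of 8 supporting cell markers tested, 6 were also higher in hair cells and 2 lower, as given below. The hair cell marker list was chosen with earlier results of these data known. In pooled cells, fewer cells of a type and less RNA per cell cannot be told apart.

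As a class, the plasma membrane pumps had higher values in hair cells. Their summed RPKM was 311 and 294 in the hair cell samples against 32.3 in surrounding cells, a ratio of 9.38 between the hair cell mean and the surrounding cells. Most of this came from 1 gene, atp2b1a, and without it the sums were 20.9, 15.0 and 11.9, a ratio of 1.50. The SERCA genes summed to 31.4 and 29.1 RPKM in hair cells against 11.1 in surrounding cells, a ratio of 2.72. Without atp2a3 these sums were 5.28, 4.17 and 3.90, a ratio of 1.21. Summed over all genes, RPKM was 358800 and 375585 in the hair cell samples against 296371 in surrounding cells. The ratios given here are not corrected for that difference. RPKM of the plasma membrane pumps was 9.92 and 10.1 times that of the SERCA pumps in the hair cell samples against 2.91 times in surrounding cells. All 10 genes together made up 0.0955% and 0.0861% of the summed RPKM of hair cells and 0.0146% of that of the surrounding cells. With 2 samples against 1 the smallest p of an exact permutation is 0.333, so these sums were set side by side with no test.

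**Figure D1:**
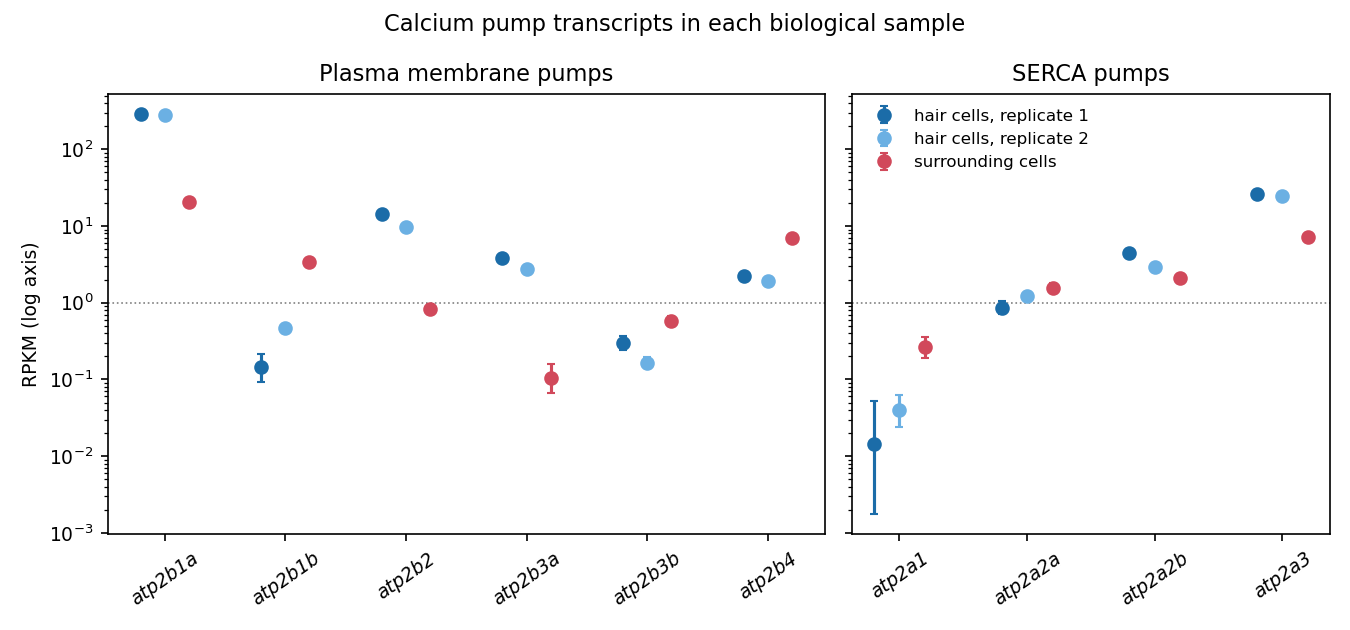
RPKM on a log axis of the 6 plasma membrane pump genes and the 4 SERCA genes in the 3 biological samples, each point the mean of 2 technical replicates and each bar the 95% counting interval of its reads (exact Poisson). The dotted line marks 1 RPKM. The hair cell points of atp2b1a stand at 291 and 279 RPKM and its surrounding cell point at 20.3, while those of atp2b1b and atp2b4 lie below the surrounding cells.

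The groups were compared by limma on the scale of log2(RPKM + 1), with p adjusted by Benjamini-Hochberg over all 15802 genes of at least 1 RPKM in a sample. Genes were called at an adjusted p under 0.05 and a difference of at least 1, and differences are hair cells minus surrounding cells. Of the 10 pump genes 8 passed the filter, and the 2 that did not, atp2a1 and atp2b3b, are given as values. Of the 8 tested, 4 were called higher in hair cells (atp2b1a, atp2b2, atp2b3a and atp2a3) and 2 lower (atp2b1b and atp2b4). Over all genes tested, 17.7% were called higher and 18.0% lower. The median difference was 1.14 over the 8 pump genes and 0.15 over all genes tested. Both hair cell samples lay above the surrounding cells for 5 of the 10 pump genes and below them for the other 5, where 35.6% and 49.0% of all genes above 0 did so, and 49.6% and 39.1% of the genes tested. The spread in the test is that between both hair cell samples, moderated by limma towards the trend over all genes tested. The single surrounding cell sample was assumed to vary alike, so p-values hold no measure of the spread between surrounding cell samples.

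The gene atp2b1a (ENSDARG00000012684, chromosome 4), a zebrafish counterpart of the widely used Atp2b1, was by far the most abundant pump transcript in all 3 samples. It had 291 and 279 RPKM in hair cells and 20.3 in surrounding cells. The hair cell samples nearly coincided and both stood well above the surrounding cells. The mean of 285±7.87 RPKM (mean±s.d., n = 2) was 14.0 times the surrounding cell value. On the log2 scale the difference was 3.74 (SE 0.20, 95% interval 3.15 to 4.34, limma adjusted p = 0.00719), and 2.28% of tested genes were higher in hair cells by as much or more. By level, atp2b1a ranked 126th and 155th among all genes in the hair cell samples against 1600th in surrounding cells. It supplied 84.7% and 86.4% of the RPKM of all 10 pump genes in hair cells against 46.9% in surrounding cells.

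The gene atp2b2 (ENSDARG00000063433, chromosome 11), the counterpart of the hair bundle pump of mammals, was also higher in hair cells but at far lower levels. It had 14.4 and 9.76 RPKM in the hair cell samples against 0.829 in surrounding cells, where 162 reads gave a 95% counting interval of 0.707 to 0.967. Both hair cell values lay far above that interval, with replicate 1 above replicate 2. The ratio of the mean to the surrounding cells was 14.6, close to that of atp2b1a, and the difference was 2.81 (SE 0.34, 95% interval 1.79 to 3.84, limma adjusted p = 0.0133). The RPKM of atp2b1a was 20.2 and 28.6 times that of atp2b2 in the hair cell samples against 24.5 times in surrounding cells. These values are for whole genes, so the splice forms of atp2b2 that differ in where and how the pump works cannot be told apart.

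The gene atp2b3a (ENSDARG00000043474, chromosome 8) belongs to the pump type that mammals use mainly in the nervous system. It had 3.82 and 2.72 RPKM in the hair cell samples against 0.106 in surrounding cells, where it rested on 22 reads with a counting interval of 0.0664 to 0.160. The surrounding cell level was the lowest of all 10 pump genes in that sample. The hair cell mean was 30.9 times the surrounding cell value, or 20.4 to 49.3 times over that interval, and the log2 difference was 1.94 (SE 0.29, 95% interval 1.06 to 2.81, limma adjusted p = 0.0198). Its duplicate atp2b3b (ENSDARG00000023445, chromosome 23) stayed under 1 RPKM everywhere and was not tested. The values of atp2b3b were 0.302 and 0.166 RPKM in the hair cell samples against 0.586 in surrounding cells, with the surrounding cells above both.

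The 2 genes called lower in hair cells were the other duplicate of Atp2b1 and the counterpart of Atp2b4. The gene atp2b1b (ENSDARG00000007788, chromosome 25) had 0.145 and 0.464 RPKM in the hair cell samples against 3.44 in surrounding cells. The hair cell values rest on 25 and 256 reads and differ from each other 3.20-fold, but both lie well below the surrounding cells. The difference was -1.78 (SE 0.24, 95% interval -2.49 to -1.07, limma adjusted p = 0.0157). The gene atp2b4 (ENSDARG00000044902, chromosome 11) had 2.25 and 1.93 RPKM in the hair cell samples against 6.98 in surrounding cells, the latter 3.34 times the hair cell mean. The hair cell samples lay close together and below the surrounding cells, with a difference of -1.37 (SE 0.28, 95% interval -2.19 to -0.55, limma adjusted p = 0.0349). The call of atp2b1b was lost with a pseudocount of 0.1 RPKM, those of atp2b1b, atp2b4 and atp2b3a with one of 5 RPKM, and those of these genes and of atp2b2 when no filter on low values was used. Over all genes, 7.75% were called lower and 10.1% higher with a pseudocount of 5 RPKM, 15.1% and 17.8% with one of 0.1 RPKM, and 6.56% and 5.52% with no filter.

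**Figure D2:**
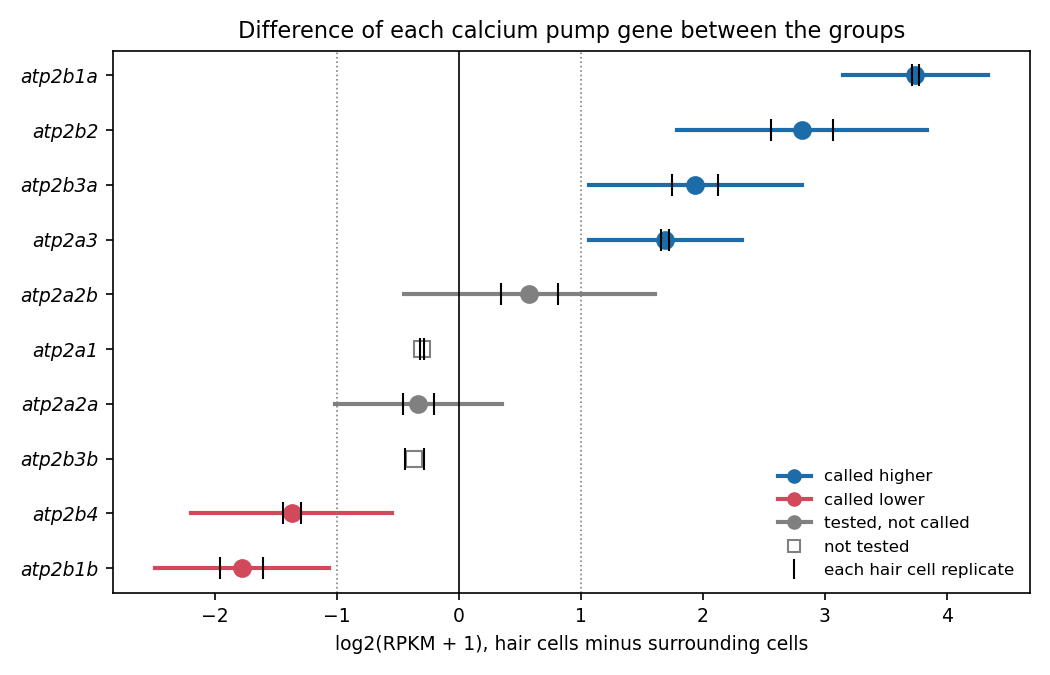
Difference on log2(RPKM + 1), hair cells minus surrounding cells, for each of the 10 pump genes, ordered by size. Filled circles with lines give the limma estimate and its 95% interval for the 8 genes tested, open squares the 2 genes under the filter, and black ticks the difference of each hair cell replicate. Dotted lines mark -1 and 1, and the estimates run from -1.78 for atp2b1b to 3.74 for atp2b1a.

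The share of each gene in the plasma membrane class was set side by side, with no test. In hair cells atp2b1a made up 93.3% and 94.9% of the class, atp2b2 4.62% and 3.32%, atp2b3a 1.23% and 0.924%, and atp2b4 0.723% and 0.657%. In the surrounding cells atp2b1a made up 63.0%, atp2b4 21.6%, atp2b1b 10.7%, atp2b2 2.57%, atp2b3b 1.81% and atp2b3a 0.328%. So atp2b4 and atp2b1b, together a small part of the class in hair cells, followed atp2b1a in the surrounding cells. In both groups the most abundant transcript of the class was the same.

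**Figure D3:**
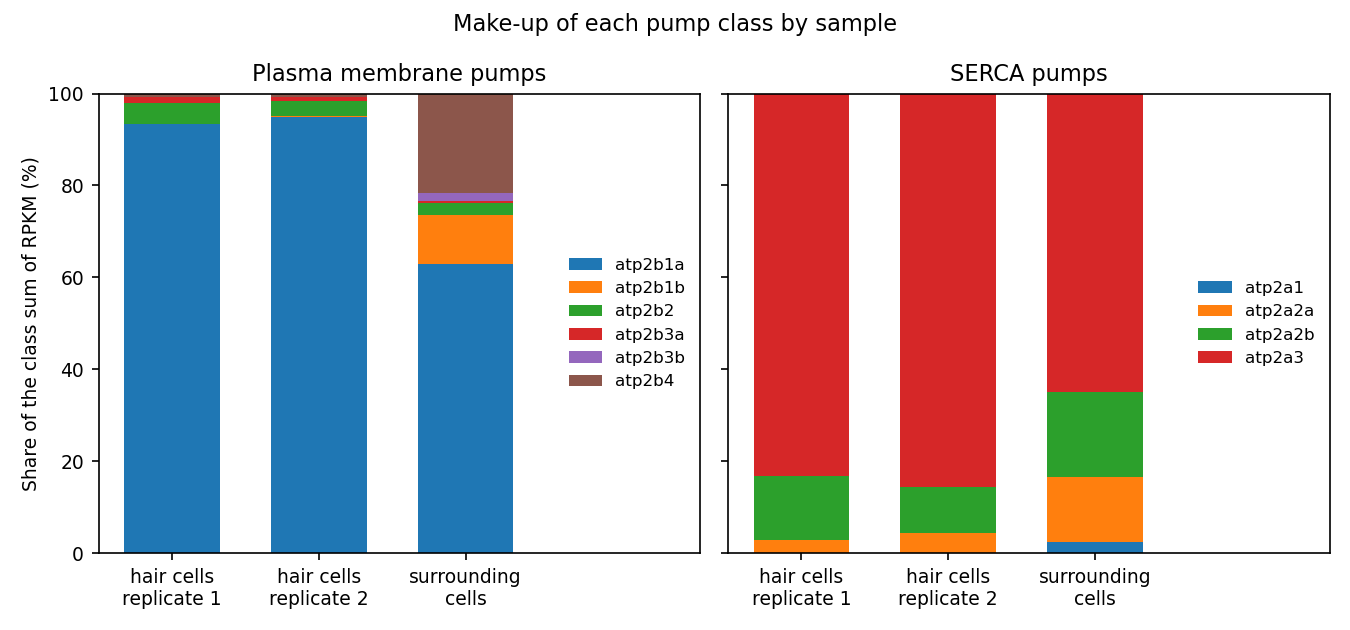
Share of each gene in the summed RPKM of its pump class, in percent, for the 3 biological samples, with the plasma membrane pumps on the left and the SERCA pumps on the right. In the surrounding cells atp2b4 takes 21.6% and atp2b1b 10.7% of the plasma membrane class, shares that are under 1% for both genes in each hair cell sample, and atp2a3 is the largest part of the SERCA class in all 3 samples.

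Among the SERCA genes, atp2a3 (ENSDARG00000060978, chromosome 5) was higher in hair cells. In mammals this type is known from blood cells, blood vessel lining and some epithelia. It had 26.1 and 24.9 RPKM in the hair cell samples against 7.20 in surrounding cells, with the hair cell samples close together and above the surrounding cells. The mean of 25.5±0.837 RPKM (n = 2) was 3.55 times the surrounding cell value, and the difference was 1.69 (SE 0.21, 95% interval 1.07 to 2.32, limma adjusted p = 0.0136). It was the leading SERCA transcript in every sample, with 83.2% and 85.7% of the class in hair cells against 64.9% in surrounding cells.

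The duplicates of Atp2a2, the SERCA gene of heart and of most tissues in mammals, were not called. The gene atp2a2b (ENSDARG00000005122, chromosome 21) had 4.40 and 2.90 RPKM in the hair cell samples against 2.07 in surrounding cells. Its difference was 0.58 (95% interval -0.45 to 1.61, limma adjusted p = 0.263). The gene atp2a2a (ENSDARG00000029439, chromosome 8) had 0.865 and 1.23 RPKM against 1.56. Its difference was -0.33 (95% interval -1.02 to 0.35, limma adjusted p = 0.323). Neither pair of hair cell values overlapped the surrounding cell value, but on the log2 scale the nearer hair cell sample lay closer to the surrounding cells than to the other hair cell sample.

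The last SERCA gene, atp2a1 (ENSDARG00000020574, chromosome 3), is that of fast skeletal muscle. It had 0.0144 and 0.0402 RPKM in the hair cell samples, from 2 and 18 reads, and 0.266 in the surrounding cells, from 40 reads. The counting interval of 0.00175 to 0.0521 RPKM in hair cell replicate 1 and of 0.0238 to 0.0636 in replicate 2 both ended below that of 0.190 to 0.362 in the surrounding cells. Of the fast muscle markers, 11 of 14 tested were lower in hair cells and 1, casq1b, which a list of calcium store genes also holds, was higher, with a summed level of 11.9 and 12.4 RPKM in hair cells against 92.9. Among the fast muscle genes, tnni2a.4 was listed at 0 in both hair cell samples, and pvalb1, pvalb4 and mylpfa led in the surrounding cells with 19.1, 15.1 and 12.3 RPKM. The part of muscle RNA in the level of atp2a1 was not tested. The table also holds atp2a1l, a gene named after atp2a1 that the choice by symbol leaves out and that was noticed after its values were seen. It had 0.0252 and 0.00794 RPKM in the hair cell samples, from 3 reads each, and 2.14 in the surrounding cells from 272 reads, and was called lower with a difference of -1.63 (limma adjusted p = 0.00744).

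Ratios between genes within a sample do not depend on the scaling of the libraries. They do depend on the gene lengths used for RPKM, as do the class shares and the order of levels. The RPKM of atp2b1a was 2002 and 602 times that of its duplicate atp2b1b in the hair cell samples against 5.91 times in surrounding cells. For atp2b3a over atp2b3b the ratio was 12.7 and 16.4 in hair cells against 0.181 in surrounding cells. Here the leading duplicate was thus not the same in the 2 groups, but both were under 1 RPKM in the surrounding cells. There atp2b3a had 0.106 RPKM from 22 reads and atp2b3b 0.586 from 188 reads, in 1 sample. For atp2a2b over atp2a2a the ratio was 5.09 and 2.36 against 1.32. The spread between the hair cell samples was larger than the distance from the lower of them to the surrounding cells. The ratio of atp2b2 to atp2b4 was 6.39 and 5.05 in hair cells against 0.119 in surrounding cells. How reads that match both members of a pair were counted is not given in the sources used here, so low values of 1 duplicate beside a highly expressed other, as for atp2b1b in hair cells, are uncertain.

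**Figure D4:**
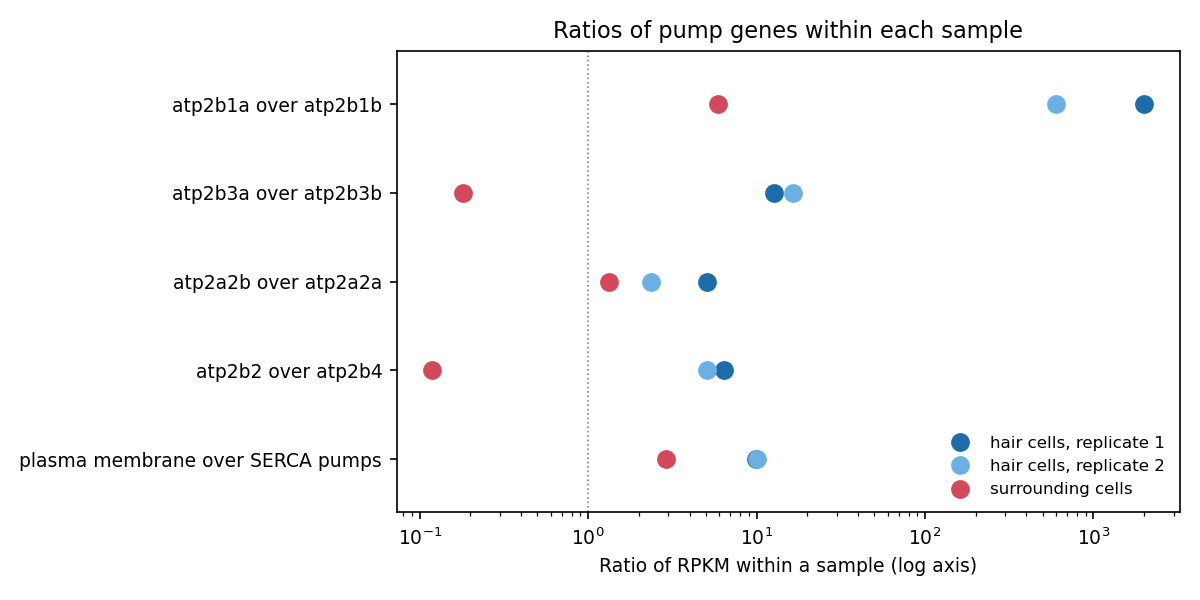
Ratio of RPKM within each of the 3 biological samples, on a log axis, for the 3 pairs of duplicate genes, for atp2b2 over atp2b4, and for the summed plasma membrane over the summed SERCA pumps. The dotted line marks equal levels. The points of atp2b3a over atp2b3b and of atp2b2 over atp2b4 lie above 1 in both hair cell samples and below 1 in the surrounding cells.

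By mean level the pump genes of hair cells ranked in the order atp2b1a, atp2a3, atp2b2, atp2a2b, atp2b3a, atp2b4, atp2a2a, atp2b1b, atp2b3b and atp2a1. Neighbours in this order were apart in both hair cell samples, except that atp2a2b and atp2b3a overlapped, as did atp2b1b and atp2b3b. In the surrounding cells the order was atp2b1a, atp2a3, atp2b4, atp2b1b, atp2a2b, atp2a2a, atp2b2, atp2b3b, atp2a1 and atp2b3a. There the counting interval of atp2a3, 6.84 to 7.58 RPKM, overlapped that of atp2b4, 6.72 to 7.26. By reads, without the correction for gene length, atp2b4 had more, with 2589 against 1478. With 1 sample of surrounding cells, the spread of these levels between preparations is not known.

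The pump genes also differed in how close the hair cell samples were. The gap between the hair cell samples on the log2 scale was 0.06 for both atp2b1a and atp2a3, against a median of 0.26 over all genes tested, and 86.5% and 84.8% of tested genes had a gap as large or larger. It was 0.51 for atp2b2, 0.47 for atp2a2b and 0.37 for atp2b3a, which all had the higher level in replicate 1. Gaps of at least that size were found for 20.2%, 24.1% and 33.9% of tested genes. The genes atp2b1b and atp2a2a had the higher level in replicate 2, with gaps of 0.35 and 0.26.

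Levels of cell type markers were set beside these results. In the surrounding cells, levels of the hair cell markers were 0.0813% to 1.01% of their hair cell means, except for cacna1da with 11.1%. That gene was low, at 2.19 and 1.94 RPKM in hair cells against 0.228. The surrounding cell level was 7.14% of the hair cell mean for atp2b1a, 6.87% for atp2b2, 3.24% for atp2b3a and 28.2% for atp2a3. These shares were above every hair cell marker except cacna1da, and for atp2a3 above that one too. The part of hair cell RNA in these surrounding cell levels was not tested. In the opposite direction, hair cell means were 0.00319% to 26.9% of the surrounding cell level for the 8 epithelial and keratin genes called lower, against 8.85% for atp2b1b and 30.0% for atp2b4. This range leaves out cldnb of the same list, which was not called, with 374 and 536 RPKM in hair cells against 1193. Of these epithelial genes, krt91 and krt97 had 4159 and 1835 RPKM in the surrounding cells and under 1 RPKM in each hair cell sample, while krt5 had 272 and 290 RPKM in hair cells against 3104. The epithelial and keratin list summed to 881 and 1120 RPKM in hair cells against 13270 in surrounding cells.

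Leukocyte markers summed to 70.1 and 52.1 RPKM in hair cells against 1081 in surrounding cells, with 6 of 8 tested lower and lyz higher, and endothelial markers to 1.85 and 1.75 against 32.5, with 6 of 7 lower. Of the pump genes, atp2a3 was called higher in hair cells, and atp2b4 and atp2b1b lower. Markers of neurons, which use Atp2b2 and Atp2b3 in mammals, summed to 174 and 157 RPKM in hair cells against 10.5 in surrounding cells, with sncb, isl2b and snap25b higher of 5 tested, while elavl3 stood at 0.0643 and 0.0201 against 0.598. In these sums sncb alone had 129 and 110 RPKM against 1.19. The genes snap25a and syt1a were not called, and the others found of this list were not tested. Of 8 supporting cell markers tested, 6 were higher in hair cells and cx43 and fgfr3 lower, at a summed 1511 and 1557 RPKM against 36.9. Of the 6, stm had 603 and 560 RPKM in the hair cell samples against 9.49 in surrounding cells. The next were tectb with 505 and 554 against 3.03 and slc1a3a with 244 and 288 against 7.31. The rest were tecta, otogl and lfng. However, sox2 was at 0.0152 in hair cell replicate 1 and at 0 in the other samples. Ionocyte markers summed to 63.4 and 62.2 RPKM against 69.4, with 3 of 4 tested lower, igfbp5a higher and foxi1 at 0 in both hair cell samples. Red blood cell genes summed to 290 and 105 RPKM against 387, and heart and slow muscle genes to 0.211 and 0.460 against 1.49. The part of these cell types in the pump levels was not tested.

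Other genes of calcium handling were then examined from lists of 70 genes, chosen with earlier results of these data known. Of these, 55 were in the table by symbol and 40 were tested. Of the 40, 13 passed the test as higher in hair cells and 1 as lower, beside 17.7% and 18.0% of all genes tested, and the median difference was 0.64. The list of pump partners and regulators, which holds genes for both pump classes, had 11 genes tested, of which 8 were higher and none lower, with a median of 1.88. The 8 were 5 calmodulin genes, among which reads may have been shared, and nptna, pdzd11 and tmco1. The product of pdzd11 binds plasma membrane pumps in mammals, and tmco1 encodes a protein of the endoplasmic reticulum. The genes pln and sln of this list were not in the table by symbol. When no filter on low values was used, the calls of calm2a, calm3b and pdzd11 were lost, where 5.52% of all genes were called higher. Of the 11, 10 had an unadjusted p under 0.05, as did 8033 of all 15802 genes tested. In the fit of recovered reads named in the processing none of the 11 was lower, and 25.1% of all genes were.

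Neuroplastin is a subunit that mammalian plasma membrane pumps need for their stability, and its loss in mice causes deafness. Its gene nptna had 342 and 372 RPKM in the hair cell samples against 0.639 in surrounding cells, from 44 reads. The groups were far apart, with a difference of 7.77 (SE 0.20, 95% interval 7.17 to 8.37, limma adjusted p = 0.00719). The duplicate nptnb had 0.0404 and 0 RPKM in the hair cell samples against 0.0622 in surrounding cells and was not tested. The gene bsg, for basigin, the alternative subunit, had 23.8 and 38.8 RPKM against 29.2 and was not called. Set against the summed RPKM of the plasma membrane pumps, nptna stood at 1.1 and 1.26 in hair cells against 0.0198 in surrounding cells. The same ratio for bsg was 0.0766 and 0.132 in hair cells against 0.903 in surrounding cells.

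Calmodulin binds the tail of the plasma membrane pumps and activates them. Its 6 genes summed to 3513 and 3624 RPKM in hair cells against 685 in surrounding cells, and all but calm3a were called higher. Among them calm1b had 670 and 698 RPKM against 22.0, a difference of 4.90 (SE 0.21, limma adjusted p = 0.00719), and calm1a had 556 and 643 against 79.2, a difference of 2.90 (SE 0.24, limma adjusted p = 0.00784). Per RPKM of plasma membrane pump, calmodulin transcripts stood at 11.3 and 12.3 in hair cells against 21.2 in surrounding cells. These genes encode proteins that are alike, and reads may have been shared among them.

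**Figure D5:**
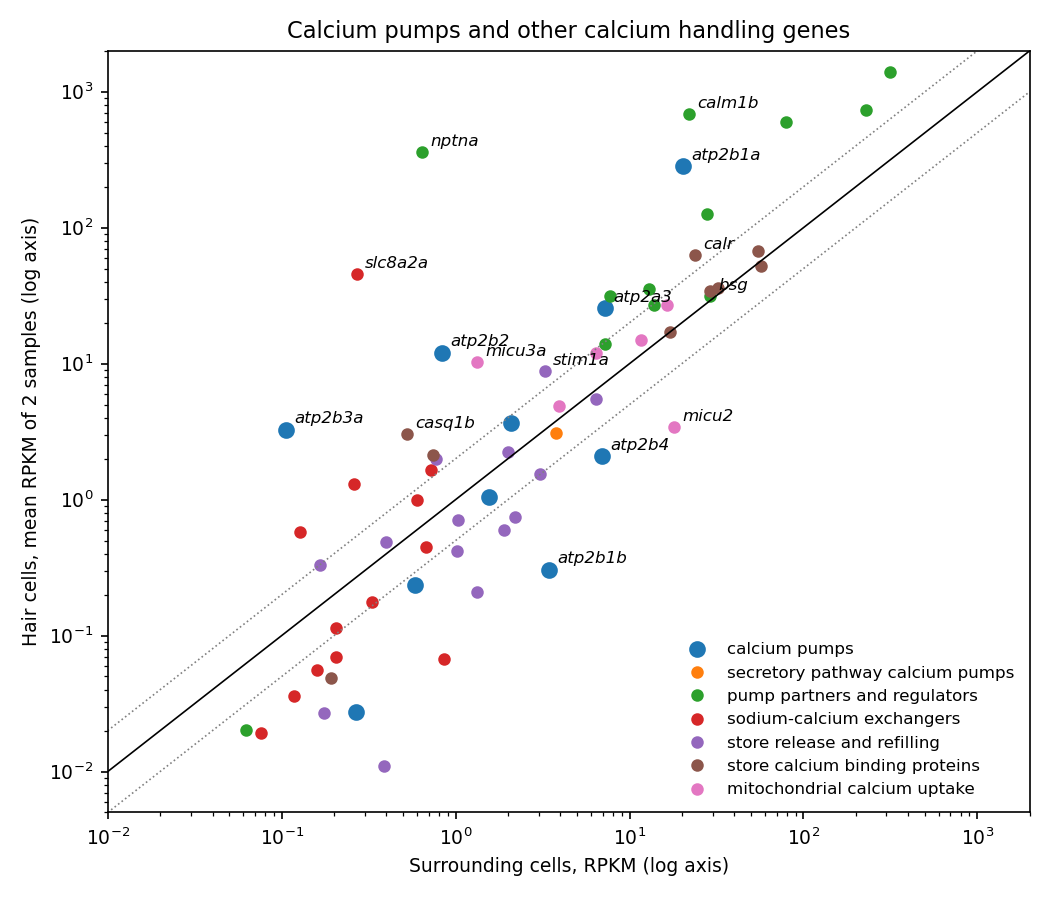
Mean RPKM of the 2 hair cell samples against RPKM of the surrounding cell sample, both on log axes, for the calcium pumps and the other calcium handling lists, with 65 points drawn. The solid line marks equal levels and the dotted lines a 2-fold difference. The genes nptna and slc8a2a lie farthest above the line, and atp2b1b and micu2 are among the genes below it.

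The other route out of the cell, sodium-calcium exchange, was led by 1 gene. The exchanger gene slc8a2a had 50.1 and 40.7 RPKM in the hair cell samples against 0.271 in surrounding cells, from 25 reads. Both hair cell values were far above the surrounding cells, and the difference was 5.18 (SE 0.25, 95% interval 4.43 to 5.94, limma adjusted p = 0.00719). It was the only one called of 4 exchanger genes tested, where 17.7% of all genes tested were called higher, and 13 were found in the table. In hair cells slc8a2a was thus above every pump gene but atp2b1a. The pump of the secretory pathway, atp2c1, had 3.59 and 2.62 RPKM in hair cells against 3.79 in surrounding cells, with a difference of -0.23 (95% interval -1.16 to 0.69, limma adjusted p = 0.592).

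Genes of release and refilling of the calcium store, among them orai1a and orai1b, had 1 of 10 tested called higher and none lower by limma. Over all genes tested, 17.7% were called higher and 18.0% lower. Of the 10, 6 had an unadjusted p under 0.05, a share near that of all genes. In the fit of recovered reads 4 were called lower, where 25.1% of all genes were. The higher gene was stim1a, a store sensor, with 7.87 and 9.83 RPKM against 3.26 and a difference of 1.2 (SE 0.28, limma adjusted p = 0.0457). This call was lost when no filter was used, under median-ratio scaling, from technical replicate 1 alone and with a pseudocount of 5 RPKM. Of the calcium binding proteins of the store, 2 of 8 tested were called higher, beside 17.7% of all genes tested. They were calr, for calreticulin, with 60.3 and 64.8 RPKM against 23.6, and the calsequestrin gene casq1b with 3.05 and 3.02 against 0.522. The call of casq1b was lost when no filter was used, in the fit of recovered reads and with a pseudocount of 5 RPKM, and a filter of 5 RPKM left it untested. In mitochondrial uptake, regulators of the uniporter went both ways. The gene micu3a had 8.80 and 11.6 RPKM against 1.32, a difference of 2.26 (SE 0.30, limma adjusted p = 0.0155), and micu2 had 3.05 and 3.80 against 18.1, a difference of -2.11 (SE 0.27, limma adjusted p = 0.0143). When no filter was used, the call of micu3a was lost and that of micu2 was kept. The uniporter gene mcu itself, with 27.9 and 26.1 RPKM against 16.5, was not called.

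The genes whose levels were most like those of atp2b1a were found by the Euclidean distance of log2(RPKM + 1) over the 3 samples, among all genes tested. The nearest 5 were arg2, a mitochondrial arginase gene, at a distance of 0.28, DNAJA4, a chaperone gene, at 0.33, cox6b1, of cytochrome c oxidase, at 0.72, rnasekb at 0.76 and btc, a growth factor gene, at 0.98. The gene arg2 had 261 and 239 RPKM in the hair cell samples against 20.1 in surrounding cells. None of the other 9 pump genes was among them. This distance compares levels, and the next pump gene in hair cells, atp2a3, had only 26.1 and 24.9 RPKM. Genes at such lower levels could not be among the nearest, so their absence says nothing on a shared pattern.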

How the data were processed

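The authors mapped reads to zebrafish build GRCz10 (submitters' processing notes) and deposited RPKM per gene and library. How reads were aligned, counted and annotated, and whether by strand, was not given in the sources used here. Their 4 columns of group means and deviations were left out, and 2 repeated rows of 31388 were dropped. RNA was purified with a Qiagen kit and amplified with Clontech Smart-Seq, without molecular identifiers, so counting intervals cover counting error only.

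Whole reads within 0.001 of a read were recovered from the RPKM steps for 100% of 15802 tested genes. The true number could be a multiple of these. The chi-square per gene between technical replicates was 1.06 to 1.10, where sampling gives 1.

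limma 3.58.1 (R 4.3.3, moderated variance with a trend on mean level) was fitted to log2(RPKM + 1) of 3 samples, with 1 residual degree of freedom and 3.42 after moderation. The scale understates changes of low genes. The fit was tested on simulated reads. Alternatives were pseudocounts of 0.1 and 5 RPKM, no filter, a filter of 5 RPKM, median-ratio scaling, limma-voom on recovered reads with upper-quartile scaling, each hair cell sample alone and each technical replicate alone. Members and lists were chosen with earlier results of these data known. Named genes were all members, per calcium list the up to 3 largest calls in each direction, and the 5 nearest genes to the top member. For some marker lists the 3 highest were named. Other genes were chosen after their values were seen. Gene coordinates and sequences were not used here.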

Additional observations from a re-analysis of the deposited data

How the results depend on the processing

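All 82 values of the 10 pump genes under the alternatives kept their side of 0, and 8 calls were lost. Of all genes above 0, both hair cell samples lay above the surrounding cells for 35.6% and below them for 49.0%. For all 10 pump genes they likewise lay on one side. A change of pseudocount, of filter or of the hair cell sample used could thus not move a value across 0. The calls of atp2b1a and atp2a3 held in each of the 8 alternatives with a test, which all use the same 3 biological samples. With no filter on low values, 2 pump genes were called higher (main value 4) and 7 other calcium handling genes higher (main value 13). Pump genes called lower by limma (main value 2) numbered 1 with a pseudocount of 0.1 RPKM and 1 with a filter of 5 RPKM, where 4 pump genes were tested. They numbered 0 with a pseudocount of 5 RPKM, where 2 had an unadjusted p under 0.05 but a difference under 1, and 0 with no filter, where 3 had an unadjusted p under 0.05. voom called 2. Handling genes called lower (main value 1) numbered 2 with a pseudocount of 0.1 RPKM, the added gene being itpr3, and 5 with voom, which called 25.1% of all genes lower against 18.0%. The cause was not tested. The log2 ratio of summed plasma membrane pumps was 3.23, and 3.19 to 3.27 with either hair cell sample alone. That of SERCA pumps was 1.45, and 1.39 to 1.50. With 1 hair cell sample left out no residual spread remains, so counts of calls were not run there.

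Over all genes, 2799 were called higher and 2852 lower. Counts were 1603 and 1225 with a pseudocount of 5 RPKM and 1464 and 1740 with no filter. Higher genes were 49.5% of calls, and 34.8% with voom, which moved the median of all genes by -0.29. On that scale atp2b1a still differed by 3.48 and atp2b4 by -2.10. No paired analysis was possible because the groups share only replicate number 1. Depth limits atp2a1 and atp2b3a most, with 2 reads in a hair cell sample and 22 in the surrounding cells.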
